A study of Homo sapiens with 27 samples.

Results

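Amino acid transporters of the plasma membrane were followed as a set of 10 genes, chosen by symbol from the 67130 genes of the count tables: SLC3A2, SLC7A5, SLC7A11, SLC7A1, SLC7A3, SLC1A4, SLC1A5, SLC38A1, SLC38A2 and SLC6A9. The rule names symbols and uses no measured value, but the set was proposed with earlier results of these data known. RNA was sequenced from 27 libraries of human cell lines, in 9 groups of 3, all of them knockout for ARID1A, which encodes a large DNA-binding component of BAF (SWI/SNF), a complex that remodels chromatin. The labels name 293T, from embryonic kidney cells made to express large T antigen of SV40, and Huh7, from a hepatocellular carcinoma, and the treatment note on the samples labelled 293T names Huh7 as well.

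The 6 groups labelled 293T were the ARID1A knockout alone (KO) and the knockout with Flag-tagged ARID1A of wild-type sequence (WT) or with the missense change V2084D, G2087E, G2087R or K2025E. The 3 groups labelled Huh7 were the knockout with WT ARID1A, with V2084D, and with V2084D together with a knockdown of STUB1 (V2084D_shSTUB1). STUB1 is a ubiquitin ligase that works with the HSP70 and HSP90 chaperones. The ARID1A forms came from stably integrated lentivirus in cultured lines, and not from the edited ARID1A gene. No group of Huh7 knockout cells without re-expressed ARID1A was analysed here. Nothing in the labels says whether the replicates were separate cultures, and each p-value below measures no more than the spread of these libraries, which may be technical.

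Cells take up most amino acids through carriers of the SLC families, some of which are exchangers that export one amino acid for each one imported. SLC3A2, the heavy chain called CD98hc or 4F2hc, brings light chains such as SLC7A5 and SLC7A11 to the cell surface. When amino acids are short or the endoplasmic reticulum is stressed, phosphorylation of eIF2alpha favours translation of the transcription factor ATF4, which binds C/EBP-ATF response elements (CARE) at many amino acid transporter and synthesis genes.

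The libraries held 33429483 to 55539529 counts for 293T and 59124374 to 79915177 for Huh7. ARID1A stood at 119 to 194 CPM (library counts scaled to a common total) in the KO libraries, at 5727, 9391 and 63182 CPM in 293T WT, and at 294, 326 and 68482 CPM in G2087R, so G2087R replicates 1 and 2 were close to KO. Its group means in Huh7 WT, V2084D and V2084D_shSTUB1 were 358, 248 and 273 CPM. STUB1 fell from 261 CPM in Huh7 V2084D to 72.9 CPM with the shRNA (log2 difference -1.84, SE 0.10, adjusted p = 8.8e-06). K2025E replicates 2 and 3 lay at -104 and -66.6 on the first principal component, against -40.2 to 47.8 for all other libraries labelled 293T. Hepatocyte markers did not bear out the Huh7 label. None of 10 genes such as ALB, AFP and APOB reached a mean of 1 CPM over the 9 libraries labelled Huh7, and their sum was 1.86 to 5.14 CPM. Of 10 genes listed for the embryonic kidney line, 8 reached that mean, such as IRS4, and their list summed to 291 to 786 CPM. In the libraries labelled 293T, 9 of these 10 genes reached a mean of 1 CPM, with a sum of 385 to 805 CPM. There the hepatocyte list summed to 2.88 to 10.5 CPM. The groups are therefore named as the libraries labelled Huh7, and whether the sets are different lines was not settled here. Among them, V2084D_shSTUB1 replicate 2 stood apart, at 96.9 on the second principal component against 14.1 and 11.3 for its replicates.

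The 5 CARE matches near member start sites are shown as a description of sequence, with the E-box of SLC7A5 for contrast. Promoter windows of 300 bases, 250 before and 50 after the start, came from RefSeq (GRCh38.p14) for 8 of the 10 members, in 14 windows. SLC7A11 and SLC7A3 have no window in that table and were not searched. Each line runs 5′ to 3′ on the strand of the gene, with the motif in capitals. The first 5 hold the CARE letters TGATGNAAN, searched on both strands, and the last holds the E-box CACGTG, the letters bound by MYC and its relatives.

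SLC1A4 (chr2:64989381-64989409, plus strand): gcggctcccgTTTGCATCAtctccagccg

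SLC7A1 (chr13:29595663-29595691, minus strand): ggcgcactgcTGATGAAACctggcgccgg

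SLC38A1 (chr12:46266502-46266530, minus strand): cagacccgaaTGATGAAAAgggatcagct

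SLC1A5 (chr19:46784893-46784921, minus strand): aggaagtggcTGATGCAAGctgtccaggg

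SLC3A2 (chr11:62881725-62881748, plus strand): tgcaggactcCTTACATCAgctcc

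SLC7A5 (chr16:87869622-87869647, minus strand): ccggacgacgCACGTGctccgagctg

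In SLC1A4 and SLC3A2 the CARE letters lie on the other strand. Counted from the start site at 0 to the first matched base, the sites are at -8 in SLC1A4, 7 in SLC7A1, -4 in SLC38A1, -97 in SLC1A5 and 36 in SLC3A2, and the E-box of SLC7A5 is at -130. CARE letters stood in 5 of the 14 member windows and in 3.61% of all 35116 windows. The E-box stood in 2 of 14 (SLC7A5 and SLC1A5) against 7.26% of all. The antioxidant response element core TGACNNNGC, the letters bound by NRF2, stood in 4 of 14 (SLC7A5, SLC3A2, SLC7A1 and SLC1A5) against 13.3%. The windows of SLC38A2 and SLC6A9 held none of these letters. A match is a run of letters and was not measured as a binding site, and its part in the differences between groups was not tested.

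The members differed widely in level. Levels are CPM scaled together over all 27 libraries (TMM), and levels of different genes are compared only per kilobase of the longest coding transcript, which runs from 2222 bases in SLC3A2 to 9645 in SLC7A11. In the libraries labelled Huh7 with WT ARID1A, SLC1A5 (131 CPM per kb) and SLC3A2 (128) came first and overlapped. They were followed by SLC7A5 (63.4), then SLC38A2 (35.6) and SLC38A1 (34.8), which overlapped, and SLC7A1 (27.4). SLC6A9 (4.22) and SLC1A4 (3.94) overlapped, SLC7A11 (3.46 CPM per kb) had rank 9 of the 10, and SLC7A3 was listed at 0. In all 6 groups labelled 293T the highest mean per kilobase was that of SLC3A2, at 138 to 195 CPM per kb. There SLC38A1, SLC38A2 and SLC7A1 had means of 17.2 to 36.8 CPM per kb, SLC6A9 4.28 to 5.52, SLC7A11 2.37 to 4.26 and SLC1A4 1.53 to 1.85.

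SLC7A3 (ENSG00000165349, chrX:70925582-70931125), the cationic amino acid transporter CAT3, had 0 counts in 18 of 27 libraries and at most 7 in any. It passed the filter on low counts in no table and entered no test, so 9 of the 10 members were tested. At this depth no difference in SLC7A3 was detectable.

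**Figure D1:**
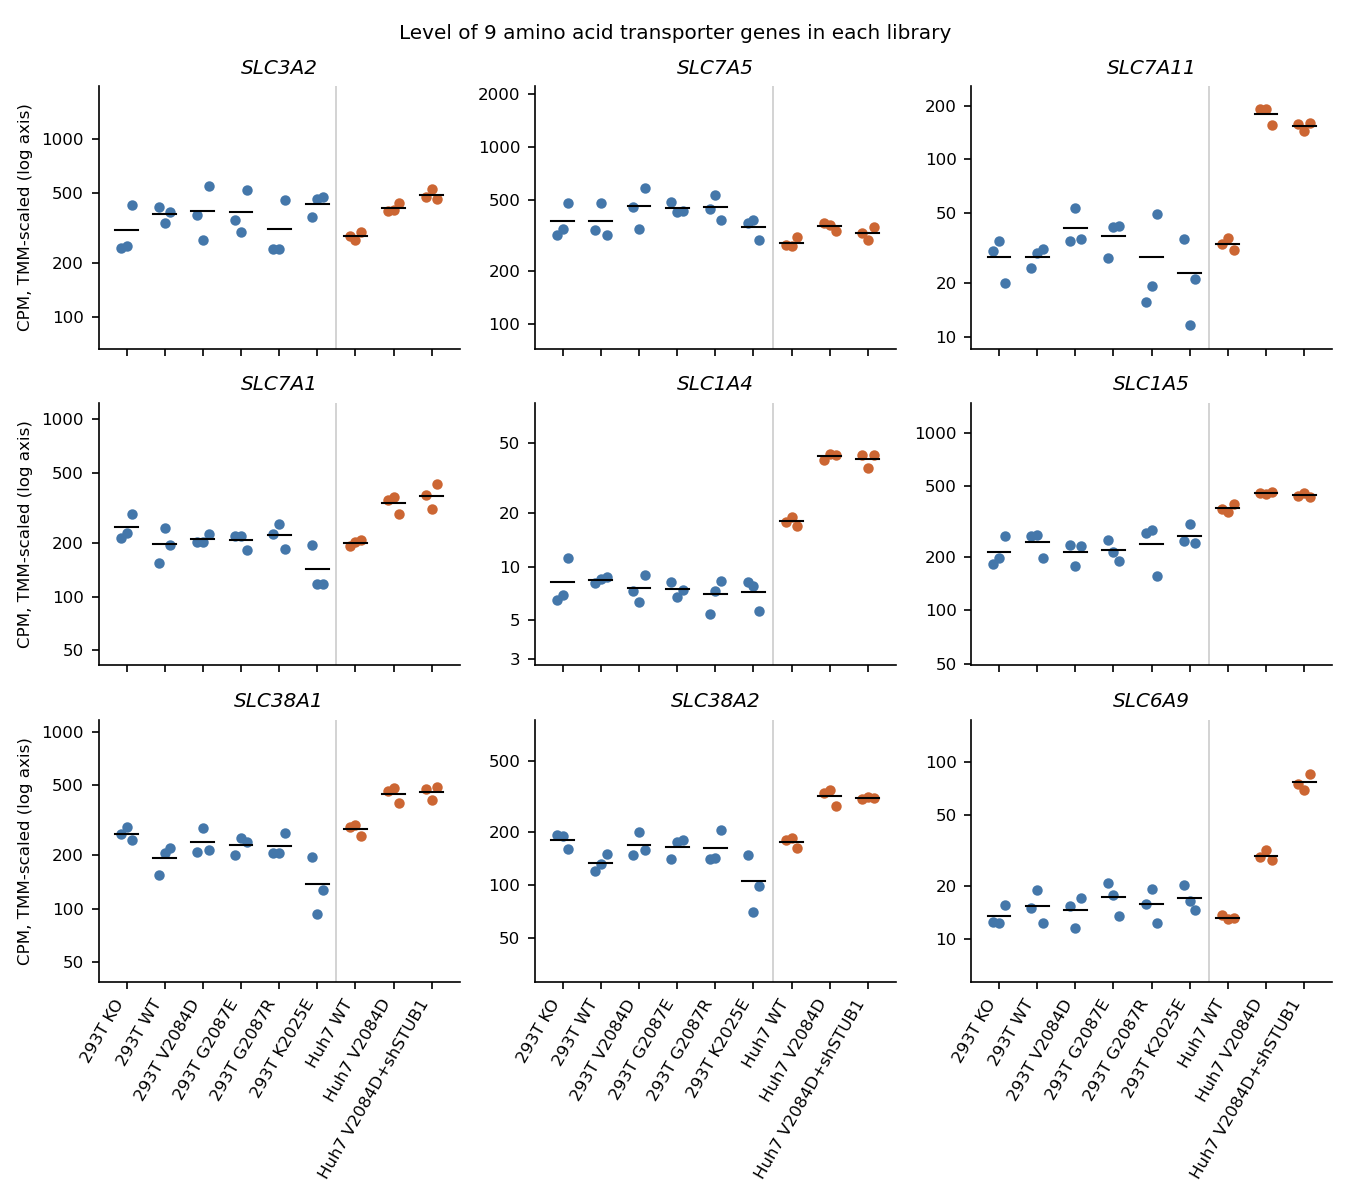
Level of each of the 9 tested transporters in every library (TMM-scaled CPM, log axis), with groups along the x axis, points for single libraries and a bar at the group mean. SLC7A11, SLC1A4 and SLC6A9 are separated most between the WT and V2084D groups labelled Huh7. Among the groups labelled 293T, K2025E has the lowest mean for SLC38A1, SLC38A2 and SLC7A1. Single libraries labelled 293T spread from 11.6 to 52.9 CPM for SLC7A11.

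The first comparison asked how the V2084D form differed from WT ARID1A in the libraries labelled Huh7. ARID1A RNA itself was at 329 to 390 CPM with WT and at 211 to 270 CPM with V2084D, with no overlap. The level of ARID1A and its sequence therefore cannot be told apart in this comparison. All 9 tested transporters were higher with V2084D (edgeR quasi-likelihood test, with p adjusted by Benjamini-Hochberg over 22510 tested genes and called below 0.05), and in none did the libraries of the groups overlap. Over all genes, 22.0% were called higher in this comparison. The share of all genes without overlap was not counted, here or in the comparisons below. The median difference of the 9 was 0.72 on the log2 scale, against 0.03 over all genes. The rise was 5.30-fold for the cystine carrier SLC7A11, 2.29-fold for SLC1A4 and 2.20-fold for SLC6A9, and 1.19- to 1.79-fold for the other 6.

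The heavy chain and its light chains moved unequally. SLC7A11 (ENSG00000151012, chr4:138164097-138242349), called xCT, imports cystine, the precursor of cysteine for glutathione, in exchange for glutamate. It stood at 33.4, 35.9 and 30.7 CPM with WT (33.4 ± 2.60, SD, n = 3) and at 192, 192 and 156 CPM with V2084D (180 ± 20.8, SD, n = 3). The lowest V2084D library was thus more than 4 times the highest WT library. The log2 difference was 2.41 (SE 0.10, adjusted p = 1.2e-07 with edgeR). SLC7A5 (ENSG00000103257, chr16:87830023-87869488), called LAT1, exchanges large neutral amino acids such as leucine. Its levels were 278, 275 and 310 CPM with WT and 371, 360 and 336 CPM with V2084D. The groups were separate but close. The log2 difference was 0.28 (SE 0.07, adjusted p = 0.011 with edgeR), and it lost its call without WT replicate 2 (adjusted p = 0.0574). SLC3A2 (ENSG00000168003, chr11:62856102-62888875) rose from 286, 272 and 298 CPM to 395, 400 and 439 CPM, a log2 difference of 0.50 (SE 0.07, adjusted p = 0.00017 with edgeR).

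Per kilobase, SLC7A11 made up 4.46% to 5.79% of the sum of the SLC7A11 and SLC7A5 levels in the WT libraries and 17.9% to 20.1% in the V2084D libraries. With V2084D, SLC7A11 passed SLC6A9 and SLC1A4 in the order of levels and reached rank 7, at 18.7 CPM per kb. SLC3A2 stayed above the sum of these light chains, at 1.88 to 1.98 times that sum with WT and 1.75 to 2.19 times with V2084D.

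Of the cationic members, SLC7A1 was tested and SLC7A3 was not. SLC7A1 (ENSG00000139514, chr13:29509410-29595688), called CAT1, takes up arginine and lysine. It was at 193, 203 and 207 CPM with WT and at 352, 366 and 294 CPM with V2084D, with no overlap (log2 difference 0.72, SE 0.11, adjusted p = 0.0005 with edgeR).

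The exchangers of small neutral amino acids, ASCT1 (SLC1A4) and ASCT2 (SLC1A5), differed in size of change. SLC1A4 (ENSG00000115902, chr2:64988477-65023865), which carries alanine, serine and cysteine, was at 17.8, 19.1 and 17.1 CPM with WT and at 40.1, 43.1 and 42.8 CPM with V2084D (log2 difference 1.20, SE 0.08, adjusted p = 2.5e-06 with edgeR). Both groups were tight, and every V2084D library was more than 2 times every WT library. SLC1A5 (ENSG00000105281, chr19:46774883-46788594), a main route of glutamine uptake, was at 372, 359 and 399 CPM with WT and at 457, 453 and 462 CPM with V2084D (log2 difference 0.25, SE 0.05, adjusted p = 0.0023 with edgeR). It was the smallest of the 9 differences, at 1.19-fold.

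The sodium-coupled neutral carriers SLC38A1 (SNAT1, ENSG00000111371, chr12:46183063-46270017) and SLC38A2 (SNAT2, ENSG00000134294, chr12:46358189-46372867), neighbours on chromosome 12, bring in glutamine and alanine. SLC38A2 was at 179, 183 and 161 CPM with WT and at 331, 343 and 279 CPM with V2084D (log2 difference 0.84, SE 0.08, adjusted p = 1.8e-05 with edgeR). SLC38A1 was at 290, 296 and 257 CPM and at 462, 480 and 396 CPM (log2 difference 0.64, SE 0.09, adjusted p = 0.00023 with edgeR). For both genes replicate 3 was the lowest library of its group with WT and with V2084D. SLC6A9 (ENSG00000196517, chr1:43991500-44031467), the glycine transporter GlyT1, was at 13.6, 12.9 and 13.1 CPM with WT and at 29.0, 31.7 and 28.0 CPM with V2084D (log2 difference 1.14, SE 0.09, adjusted p = 3.7e-06 with edgeR).

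Lists of cell type markers also moved in this comparison, with no overlap between the groups. The summed level of the genes listed for the embryonic kidney line was 749 to 786 CPM in the WT libraries labelled Huh7, 342 to 376 CPM with V2084D and 291 to 323 CPM with V2084D_shSTUB1. The keratins KRT8 and KRT18 summed to 340 to 372, 253 to 261 and 199 to 224 CPM in the same groups. The fibroblast or mesenchymal list summed to 71.3 to 71.9, 83.1 to 89.5 and 90.3 to 93.1 CPM, while the hepatocyte list was at or below 5.14 CPM in all 9 libraries. Their part in the transporter differences was not tested. In bulk RNA, a change in the share of cells of one type and a change in RNA per cell cannot be told apart. Reads of overlapping or near-identical genes were assigned by rules not given in the sources used here. The antisense gene SLC7A11-AS1 reached at most 0.792 CPM, and the SLC7A5 pseudogenes SLC7A5P1 and SLC7A5P2 at most 3.18 CPM.

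**Figure D2:**
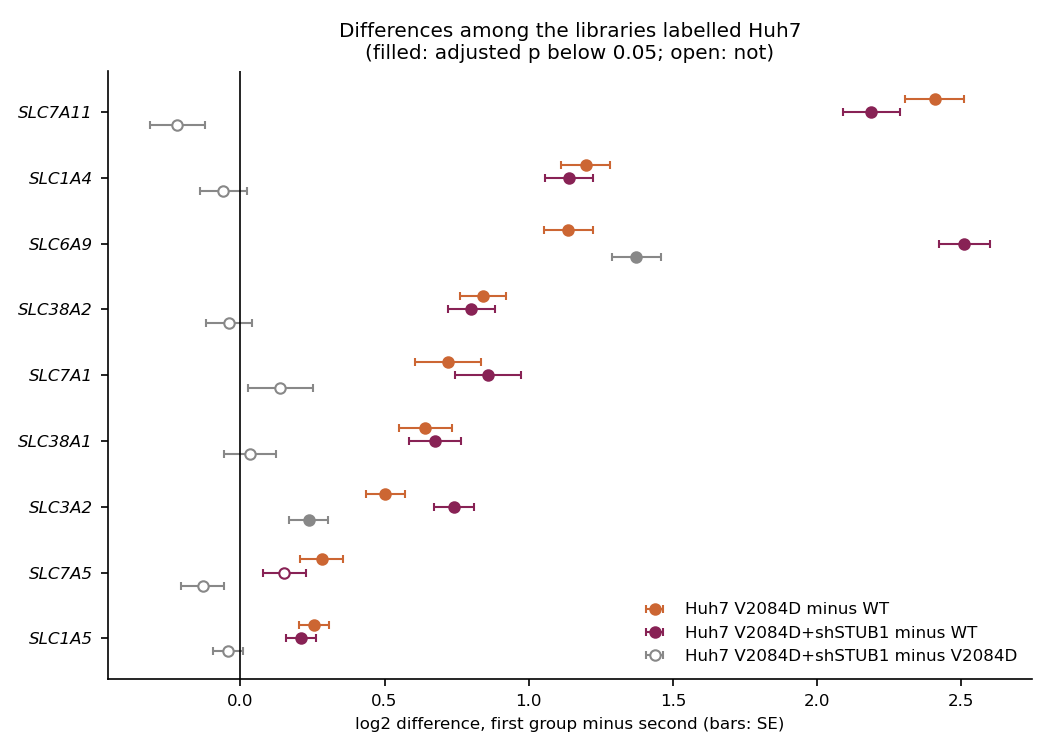
Log2 difference of each tested transporter for V2084D minus WT, V2084D_shSTUB1 minus V2084D and V2084D_shSTUB1 minus WT in the libraries labelled Huh7, with error bars of 1 SE and filled points where adjusted p is below 0.05. All 9 points lie above 0 for V2084D minus WT, from 0.25 (SLC1A5) to 2.41 (SLC7A11), and only SLC6A9 and SLC3A2 are filled for V2084D_shSTUB1 minus V2084D.

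With the STUB1 knockdown set against V2084D, 2 of the 9 transporters were called, SLC6A9 and SLC3A2, both higher. The V2084D label names no control shRNA, so delivery of an shRNA and loss of STUB1 cannot be told apart. Over all genes 21.5% were called in either direction in this comparison, so the members' share is near that background. SLC6A9 rose from 29.0, 31.7 and 28.0 CPM to 75.0, 69.2 and 85.5 CPM (log2 difference 1.37, SE 0.08, adjusted p = 1.2e-05 with edgeR), or 2.59-fold. No library with the shRNA came near the V2084D range. SLC3A2 rose from 395, 400 and 439 CPM to 473, 525 and 459 CPM (log2 difference 0.24, SE 0.07, adjusted p = 0.0301 with edgeR). The groups did not overlap, but the call was lost with the replicate number as a block (adjusted p = 0.0583), in a fit of these groups alone (adjusted p = 0.0639) and without V2084D replicate 1 or 2 or V2084D_shSTUB1 replicate 1 or 2 (adjusted p = 0.069 to 0.122). Without V2084D_shSTUB1 replicate 2, which stood apart, SLC3A2 differed by 0.18 (adjusted p = 0.0863), and SLC6A9 by 1.44 (adjusted p = 9.01e-06).

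SLC7A11 with the knockdown was at 159, 144 and 161 CPM, overlapping the V2084D range, and its difference was -0.22 (SE 0.10, adjusted p = 0.14 with edgeR), which spans -0.41 to -0.03 at 2 SE. It passed the test, and so fell, with offsets for GC content and transcript length (-0.20, adjusted p = 0.00913) and without V2084D replicate 3 (-0.31, adjusted p = 0.0375). The other 6 differences ran from -0.13 (SLC7A5) to 0.14 (SLC7A1), of which SLC7A1 passed the test with the offsets (0.30, adjusted p = 0.00234). Within 2 SE, these intervals reach no lower than -0.28 and no higher than 0.37, so changes up to that size remain possible in these libraries. SLC6A9 passed SLC7A11 in the order of levels, at 24.5 against 16.1 CPM per kb.

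Against WT, the V2084D_shSTUB1 libraries were higher for 8 of the 9 transporters, with 23.5% of all genes called higher. Because the WT libraries also serve the V2084D comparison, the values are given side by side and not counted as a second observation. SLC6A9 differed by 2.51 (SE 0.09, adjusted p = 2.9e-08 with edgeR) where V2084D alone gave 1.14, and SLC7A11 by 2.19 (SE 0.10, adjusted p = 1.8e-07) where V2084D alone gave 2.41. SLC1A4 gave 1.14 and 1.20, SLC7A1 0.86 and 0.72, SLC38A2 0.80 and 0.84, SLC3A2 0.74 and 0.50, SLC38A1 0.67 and 0.64, and SLC1A5 0.21 and 0.25. SLC7A5 was not called with the knockdown (0.15, SE 0.07, adjusted p = 0.12 with edgeR), but it was without V2084D_shSTUB1 replicate 2 (0.21, adjusted p = 0.0320) and with the offsets (0.45, adjusted p = 5.6e-05). Per kilobase, SLC7A11 made up 17.7% to 18.7% of the sum of the SLC7A11 and SLC7A5 levels with the knockdown.

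In the libraries labelled 293T the re-expressed forms were set against KO and against WT, so the comparisons share those libraries. With WT, V2084D, G2087E or G2087R, no transporter passed the test in any of the 7 comparisons among these groups. Their 63 differences ran from -0.45 to 0.54 with SEs of 0.20 to 0.39, and the lowest adjusted p was 0.49. edgeR and DESeq2 called 0 members in each, and 0 had an unadjusted p below 0.05. The share of all genes called by edgeR was 0% for WT, V2084D, G2087E and G2087R minus KO and for V2084D and G2087E minus WT, and 0.00431% for G2087R minus WT, so the members' count is that of nearly every gene and does not show that they were stable. ARID1A itself, 7.28 to 8.89 above KO on the log2 scale with these forms, did not pass in these fits (adjusted p = 0.343 to 0.973). DESeq2 called 15 to 80 genes in these comparisons. With edgeR, between 467 and 2544 of the 23201 tested genes had an unadjusted p below 0.05. Without any difference, the share expected below that threshold is 0.05 of the genes tested.

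Some of these groups were separated without passing the test. SLC38A1 was at 264, 288 and 244 CPM in KO and at 154, 206 and 222 CPM in WT (log2 difference -0.45, adjusted p = 0.49 with edgeR), and SLC38A2 at 190, 189 and 160 CPM in KO and 119, 132 and 149 CPM in WT (-0.42, adjusted p = 0.52). Every WT library lay below every KO library for both genes, and how many of all genes were separated in this way was not counted. SLC7A11 was at 34.5, 52.9 and 35.8 CPM with V2084D, just above the highest KO library (34.4 CPM) and the highest WT library (31.1 CPM), with a log2 difference of 0.54 from KO (SE 0.39, adjusted p = 0.99).

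Replicates of 1 group differed more than the groups for several members. In G2087R, SLC7A11 was at 15.7 and 19.3 CPM in replicates 1 and 2, where ARID1A was close to KO, and at 49.1 CPM in replicate 3, where ARID1A was high. SLC3A2 was at 242, 241 and 455 CPM and SLC1A5 at 272, 284 and 156 CPM in the same libraries, so replicate 3 stood apart in opposite directions. The part of ARID1A level in this was not tested. A fit without G2087R replicates 1 and 2 leaves 1 library in that group, assumed to vary like the others. It called 0 members but also only 8 of 25633 genes in G2087R minus KO and 4 in G2087R minus WT, so it says nothing on the members. SLC3A2 was highest in replicate 3 in 5 of the 6 groups labelled 293T, at up to 548 CPM.

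K2025E minus KO was the exception among the 293T comparisons. SLC38A1, SLC38A2 and SLC7A1 were lower with K2025E, 3 of 9 members, where 5.72% of all genes were called lower and 7.17% higher. That background moved with single libraries. Of all genes, 2989 were called with every library, 1 without K2025E replicate 2, 618 without K2025E replicate 3 and 5270 without K2025E replicate 1. Without KO replicate 1 or 2 the number was 1078 or 951, and it was 436 in a fit of KO and K2025E alone. SLC38A1 was at 196, 93.3 and 128 CPM with K2025E against 264, 288 and 244 CPM in KO (log2 difference -0.93, SE 0.22, adjusted p = 0.014 with edgeR). SLC38A2 was at 147, 70.5 and 98.8 CPM against 190, 189 and 160 CPM (-0.77, SE 0.23, adjusted p = 0.033), and SLC7A1 at 195, 118 and 118 CPM against 215, 229 and 292 CPM (-0.77, SE 0.21, adjusted p = 0.022). No library overlapped for these 3 genes, a separation not counted over all genes, and in each the first K2025E replicate was closest to KO. SLC3A2 was at 363, 463 and 474 CPM with K2025E and 244, 251 and 426 CPM in KO, with an SE as wide as 0.29 around a difference of 0.50 (adjusted p = 0.27), so a change in the opposite direction could not be called.

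The 3 calls were lost in several fits in which the differences kept most of their size. Without KO replicate 2 they were -0.87 for SLC38A1, -0.74 for SLC38A2 and -0.81 for SLC7A1, and in a fit of KO and K2025E alone -0.96, -0.79 and -0.79 (adjusted p = 0.0553, 0.0796 and 0.0676). Without K2025E replicate 2 they were -0.74, -0.58 and -0.67, and without K2025E replicate 3 -0.90, -0.75 and -0.67. SLC38A2 also lost its call without KO replicate 1 (-0.73) and SLC7A1 without KO replicate 3 (-0.65). Without both K2025E replicates 2 and 3, which stand apart, the values were -0.45, -0.30 and -0.34. That fit leaves 1 K2025E library, assumed to vary like the other groups, and called 1 of 25852 genes, so it is no test of the members. Offsets for GC content and transcript length made the 3 differences clearly smaller, at -0.38, -0.35 and -0.46. All 3 kept their calls (adjusted p = 0.0154, 0.0313 and 0.0218). The uncalled difference of SLC3A2 also shrank with the offsets, to 0.19. The part of GC content and length in the K2025E differences was not tested.

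Against WT, no member passed the test with K2025E, with 0.00431% of all genes called. SLC38A1 (-0.49) and SLC7A1 (-0.47) had an unadjusted p below 0.05 there, and without K2025E replicate 1 both were called, at -0.82 (adjusted p = 0.0347) and -0.75 (adjusted p = 0.0395), in a fit that called 1048 of 24153 genes.

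**Figure D3:**
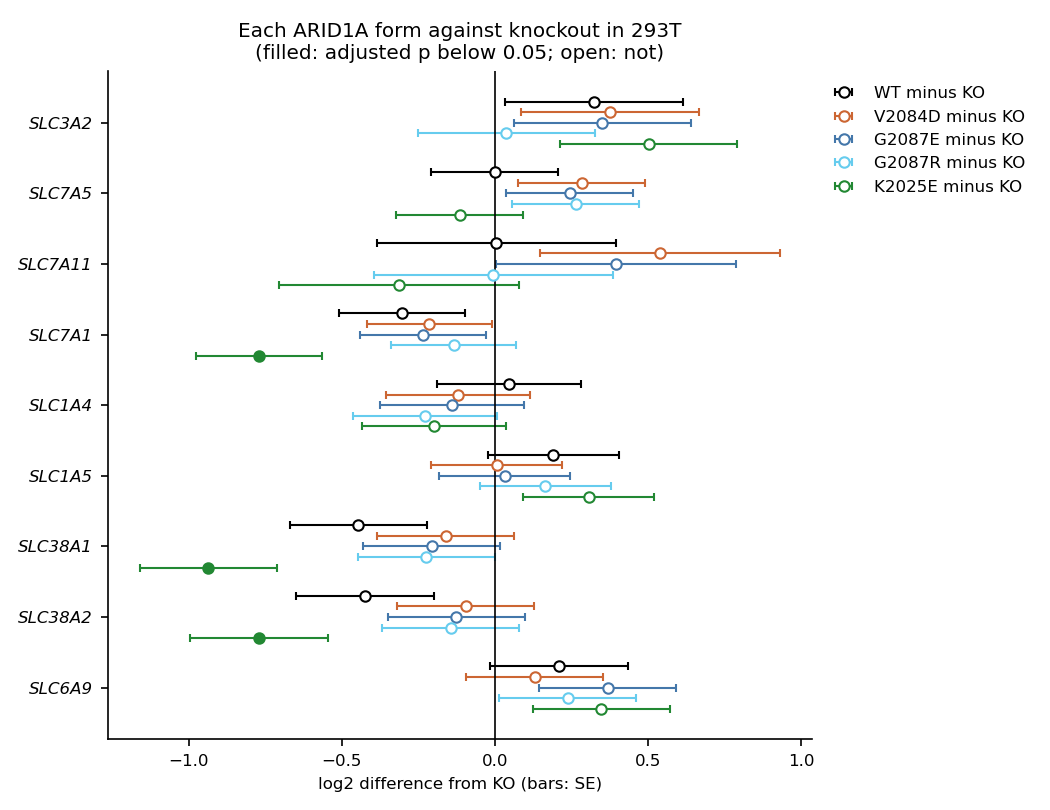
Log2 difference from KO of each tested transporter in the libraries labelled 293T, by ARID1A form, with error bars of 1 SE and filled points where adjusted p is below 0.05. Only SLC38A1, SLC38A2 and SLC7A1 with K2025E are filled, at -0.93, -0.77 and -0.77, and all comparisons share the 3 KO libraries.

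The sets labelled Huh7 and 293T were compared in a joint fit of all 27 libraries, in which label and count table cannot be told apart. With WT ARID1A in both, 3 members were higher in the libraries labelled Huh7, where 23.0% of all genes were called in either direction. SLC1A4 differed by 1.09 (SE 0.19, adjusted p = 0.00023 with edgeR), from 8.08 to 8.69 CPM in 293T to 17.1 to 19.1 CPM. SLC1A5 differed by 0.64 (SE 0.18, adjusted p = 0.014), a call lost without WT replicate 3 of either set (adjusted p = 0.0675 for 293T and 0.0517 for Huh7). SLC38A1 differed by 0.53 (SE 0.19, adjusted p = 0.0488). That call was lost with RLE size factors (adjusted p = 0.0559), with either other filter (0.0546 and 0.0694), with the replicate number as a block (0.0586) and without any single WT library of either set except 293T WT replicate 3 (0.0638 to 0.183). The offsets added SLC38A2 as higher (0.24, adjusted p = 0.0278) and SLC7A5 as lower (-0.32, adjusted p = 0.0124), and a fit of these 2 groups alone added SLC3A2 as lower (-0.42, adjusted p = 0.0340). SLC7A11 overlapped between the sets, with means of 28.3 CPM in 293T WT and 33.4 CPM in Huh7 WT.

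The difference V2084D minus WT was then tested between the sets. It was larger in the libraries labelled Huh7 for 3 of 9 members, with 9.72% of all genes called in either direction. For SLC7A11 the excess was 1.90 (SE 0.48, adjusted p = 0.013 with edgeR), for SLC1A4 1.38 (SE 0.27, adjusted p = 0.0019) and for SLC6A9 1.24 (SE 0.27, adjusted p = 0.0046). In 293T the same difference was 0.53 for SLC7A11, -0.16 for SLC1A4 and -0.08 for SLC6A9, none of them called. The excess did not pass for SLC7A1 (0.65, adjusted p = 0.12), SLC38A2 (0.54, adjusted p = 0.24), SLC3A2 (0.47), SLC1A5 (0.46), SLC38A1 (0.38) and SLC7A5 (0.02). Offsets for GC content and transcript length brought the count to 7, adding SLC7A1, SLC1A5, SLC38A1 and SLC38A2, while the genes called rose from 2385 to 4493 of 24546.

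**Figure D4:**
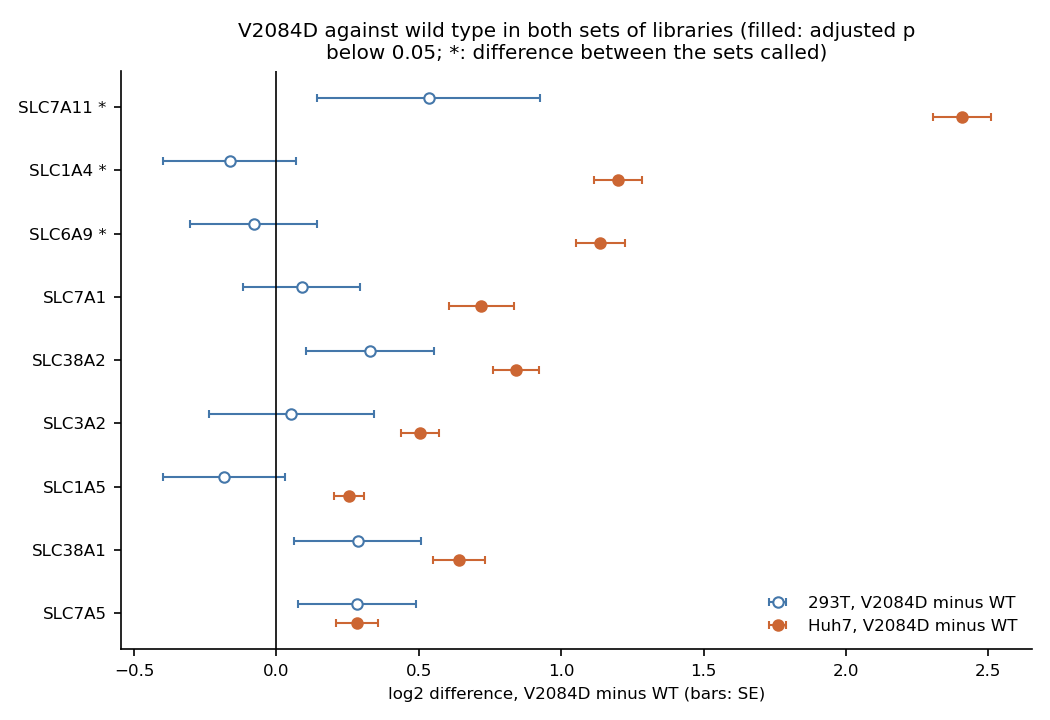
V2084D minus WT on the log2 scale (x axis) for each tested transporter, in the libraries labelled 293T and Huh7, with error bars of 1 SE, filled points where adjusted p is below 0.05 and an asterisk where the difference between the sets passed the test. SLC7A11 (0.53 and 2.41), SLC1A4 (-0.16 and 1.20) and SLC6A9 (-0.08 and 1.14) carry the asterisk, and the SLC7A5 points coincide near 0.28.

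Other genes of the same pathways were counted for context. Of 28 genes of the ATF4 response that are no carriers, 26 were higher and 1 lower in V2084D minus WT of the libraries labelled Huh7, where 22.0% of all genes were called higher and 20.0% lower, and the list's median was 1.31. ASNS, which makes asparagine, rose from 135 to 855 CPM (log2 difference 2.64, SE 0.06, adjusted p = 3.9e-09 with edgeR). CTH, which makes cysteine from cystathionine, rose from 16.2 to 125 CPM, PCK2, a mitochondrial enzyme of phosphoenolpyruvate synthesis, from 36.3 to 257 CPM, and CHAC1, which breaks down glutathione, from 13.1 to 68.0 CPM. ATF4 mRNA itself rose only from 696 to 833 CPM (0.23, SE 0.05, adjusted p = 0.0045). The lower gene was ATF5 (-1.07) and the uncalled one WARS1 (0.11), both named after their values were seen.

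In the same comparison 22.0% of all genes were called higher and 20.0% lower, so calls in both directions were common to genes at large. No list below was tested against these shares. The other plasma membrane carriers of amino acids moved in both directions. Of 31 such genes 19 were tested, and 6 were higher and 5 lower, with a median of 0.16, and no test set them against the members. SLC43A1, a carrier of branched-chain amino acids, rose by 1.05 and SLC38A3, a glutamine carrier, by 1.22, while SLC1A3, a glutamate carrier, fell by 1.43 from 51.5 to 19.4 CPM. The NRF2 list of 12 genes holds NRF2 itself and its inhibitor KEAP1 beside response genes. Of the 12, 0 were higher and 6 lower (median -0.22), with NQO1 at -1.42 and KEAP1 at -0.91. In the MYC network 1 of 10 was higher and 4 lower (median -0.31), with MYC itself at -0.59. Lysosomal and mTORC1 amino acid sensing counted 6 higher and 8 lower of 23 tested, with SLC38A7, a lysosomal glutamine exporter, at -2.29 and SESN2, a leucine sensor, at 1.38. Of 8 eIF2alpha kinase and phosphatase genes 2 were higher and 3 lower, among them PPP1R15A, which brings phosphatase to eIF2alpha, at 1.69. Glutamine, glycine and glutathione metabolism counted 5 higher and 4 lower of 11, with the glycine-cleaving GLDC at -0.97.

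**Figure D5:**
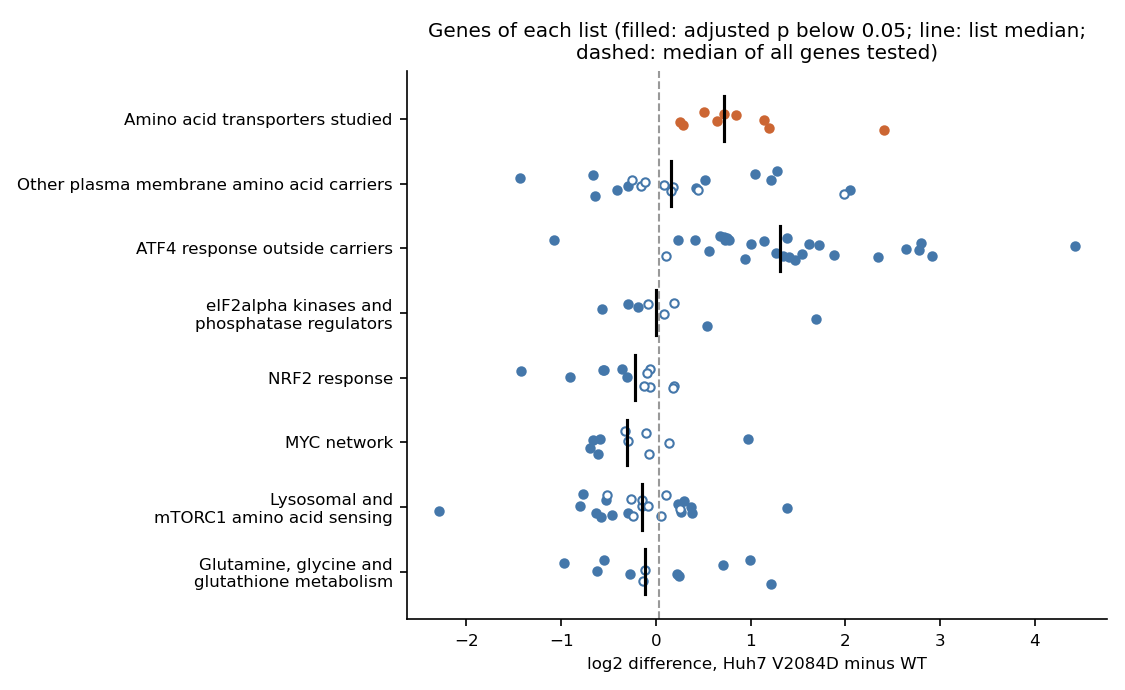
Log2 difference V2084D minus WT in the libraries labelled Huh7 for each tested gene (points, filled where adjusted p is below 0.05), in rows by list, with a bar at the list median and a dashed line at the median of all genes, 0.03. The medians are 0.72 for the transporters, 1.31 for the ATF4 response and 0.16 for the other carriers, whose points lie on both sides of 0.

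With the STUB1 knockdown set against V2084D, 6 ATF4 response genes were higher and 10 lower of 28 (median -0.03), with 21.5% of all genes called in either direction. DDIT4 (-1.44), CHAC1 (-0.55) and ASNS (-0.42) fell and WARS1 (0.54) rose. Against WT, 26 were higher and 1 lower (median 1.24), with 23.5% of all genes called higher and 21.7% lower. In K2025E minus KO, 7 ATF4 response genes were higher and 0 lower of 28 (median 0.55), including ATF4 itself (0.86) and CHAC1 (1.22), with 7.17% of all genes called higher and 5.72% lower, while 3 of 22 tested other carriers were lower and 0 higher, namely SLC7A2 (-1.17), SLC6A6 (-0.90) and SLC7A6 (-0.57). The members' median there was -0.20, against -0.02 over all genes.

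How the members varied together is described over libraries, with no test. Over the 9 libraries labelled Huh7, which share the WT and V2084D group differences, SLC7A11 correlated with SLC1A4 and SLC38A2 at r = 0.99, with SLC38A1 at 0.96, with SLC7A1 at 0.93 and with SLC6A9 at 0.79. SLC6A9 went most closely with SLC3A2 (0.93) and least with SLC7A5 (0.43). SLC3A2 was the other member called higher with the STUB1 knockdown, a call lost in several fits. Over the 18 libraries labelled 293T, SLC38A1 and SLC38A2 had r = 0.98, SLC7A11 and SLC38A2 0.80, and SLC7A11 and SLC1A5 -0.82. These libraries include the K2025E and G2087R replicates that stand apart.

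The protein-coding genes most like each member were taken by Pearson's r of log2 CPM. In the libraries labelled Huh7 they were ULBP1 for SLC7A11 (0.999), COL5A1 for SLC1A4 (0.999), MTHFD1L for SLC6A9 (0.996), RPRD1A for SLC38A2 (0.996), ZNF573 for SLC7A1 (0.997), ZNF175 for SLC38A1 (0.992), DCTD for SLC3A2 (0.995), SH3BGR for SLC1A5 (0.988) and OTUD7A for SLC7A5 (0.982). In those labelled 293T they were XPR1 for SLC38A1 (0.988), PM20D2 for SLC38A2 (0.981), ATP11A for SLC7A1 (0.981), PDLIM4 for SLC1A5 (0.970), TMEM79 for SLC3A2 (0.949), ATG14 for SLC7A11 (0.944), ZNF710 for SLC7A5 (0.941), XPO6 for SLC6A9 (0.857) and SARM1 for SLC1A4 (0.830). With 9 libraries in 3 groups, values near 1 are reached by many genes that differ between the groups.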

How the data were processed

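The authors deposited raw read counts per gene in one table for each labelled line. Per the labels, RNA was extracted with Trizol and miRNeasy and libraries were made with NEBNext Ultra II. Per the submitters' processing notes, the build was GRCh38 and edgeR was used. The aligner, counting tool, annotation and strand setting are not given in the sources used here. Positions come from GENCODE 29. Counts were tested with edgeR 4.0.16 in R 4.3.3 (quasi-likelihood F test, TMM scaling, filterByExpr at a minimum count of 10 and a minimum total of 15), with all groups of a table in 1 fit, over 23201 genes for 293T, 22510 for Huh7 and 24546 jointly. The biological coefficient of variation was 30.9%, 24.8% and 30.3% in these fits. A call is an adjusted p below 0.05 over all genes. The SE is the absolute log2 difference over the square root of F. Log2 CPM used a prior count of 2. Summed over all genes, ARID1A included, pairs of replicates differed with 11.7 to 345 times the counting variance, so replicate spread sets the precision. The highest value was in G2087R, where ARID1A itself differed widely between replicates, and these sums are no measure for single members. In simulated counts for K2025E minus KO, 2-fold changes were recovered for 37 of 100 genes and 4-fold changes for 91. For Huh7 V2084D minus WT the numbers were 69 and 94 of 100. Equal replicate numbers correlated above 0.1 for every pair only in G2087R minus WT (0.132, 0.178 and 0.315), and the block changed no member call there.

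The members and lists were chosen with earlier results of these data known. Named were all members, ARID1A, STUB1, up to 4 called genes of each list with the smallest adjusted p, and the genes most correlated with each member. ATF5 and WARS1 fall outside that rule. Alternatives were RLE, DESeq2 1.42.0, other filters, the replicate block, GC and length offsets (known for 97.5% to 97.9% of genes), only the groups compared, a log2 difference of at least 1, and fits without single libraries, without K2025E replicates 2 and 3 or without G2087R replicates 1 and 2.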

Additional observations from a re-analysis of the deposited data

Results flagged for a closer look

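For 3 transporters the difference V2084D minus WT was not the same in the libraries labelled Huh7 and 293T, by a test of the difference itself in the joint fit. The excess in Huh7 over 293T was 1.90 on the log2 scale for SLC7A11, 1.38 for SLC1A4 and 1.24 for SLC6A9. All 3 of the Huh7 V2084D libraries were above all 3 WT libraries for each gene. Label and count table cannot be told apart here, and ARID1A was at 42886 to 116307 CPM in 293T V2084D against 211 to 270 CPM in Huh7 V2084D. The part of ARID1A level in the difference was not tested.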

How the results depend on the processing

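Of 388 alternative values of the 28 called differences, apart from the size rule, 353 kept their call, 35 lost it and 0 changed sign. Requiring a log2 difference of at least 1 left 0 members for K2025E minus KO, 3 for Huh7 V2084D minus WT, 1 for V2084D_shSTUB1 minus V2084D, 3 for V2084D_shSTUB1 minus WT and 1 for Huh7 WT minus 293T WT. Fits of the compared groups alone gave 0 for K2025E minus KO and 1 for V2084D_shSTUB1 minus V2084D, where the replicate block also gave 1. The block left every other count within 1.5 times its value. GC and length offsets gave 4 for V2084D_shSTUB1 minus V2084D, 5 for Huh7 WT minus 293T WT and 7 for the difference of V2084D minus WT between Huh7 and 293T. Without K2025E replicates 2 and 3, K2025E minus KO had 0, in a fit with 1 K2025E library that called 1 gene in all. Leaving out single libraries gave 0 to 3 members for K2025E minus KO, 0 to 2 for K2025E minus WT, 1 to 3 for V2084D_shSTUB1 minus V2084D and 1 to 2 for Huh7 WT minus 293T WT. Where a table shows no reason, the cause was not tested. No scaling moved the median of all genes by over 0.1. In simulated counts for K2025E minus KO, 37 of 100 genes given a 2-fold change were called. Those genes were drawn at random from expressed genes, so this rate is not that of the members. For the members, the SEs of 0.20 to 0.39 in the 7 comparisons labelled 293T without K2025E show how closely each difference was bounded. SLC7A3, at 7 counts or fewer, was limited by depth.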
